A study of Trichoderma reesei with 15 samples.

Results

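In the filamentous fungus Trichoderma reesei, a strain without the phosphatase gene pp2A was set directly against a strain without pph5: 4 libraries titled pp2A_DD1 and 3 titled pph5_DD1, 7 of the 15 libraries of the series. The libraries were chosen by their titles. All strains derive from QM6aΔmus53, a line of QM6a without mus53, which acts in a DNA repair route that competes with homologous integration, so both deletions and the parent share this loss. The strains are called Δpp2A (QM6aΔmus53Δpp2A), Δpph5 (QM6aΔmus53Δpph5) and the parent (QM6aΔmus53). The 2 parent libraries with the same tag, DD1, show which of the deletion strains had moved away from the parent level. The 2 parent libraries tagged DD3 stand beside them. These parent libraries and 4 libraries of another deletion strain, pph5-2, tagged DD3, also entered the fit over 15 libraries that gave the p-values. Every culture was mycelium grown on cellulose as carbon source for 96 h at 28 °C in constant darkness. No light or carbon source contrast is part of the comparison. The labels do not say how many transformants or separate cultures lie behind the libraries, and p-values therefore cover the spread between these libraries, which may be technical. Δpp2A replicate 1 has a type label of WT, against its title, source name and cell line, and was kept by its title. What DD1 and DD3 stand for is unknown here, and pph5 is also spelled pp5h by the submitters.

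Protein phosphatases remove phosphate groups from proteins and thereby reverse the work of kinases. PP2A enzymes of eukaryotes join a catalytic subunit to a scaffold and to interchangeable regulatory subunits, and are known for broad roles in growth, the cell cycle and nutrient signalling. PP5 enzymes carry catalytic and protein-binding domains in a single chain and are known in mammals and yeast as partners of heat shock chaperones. T. reesei is known for secreting cellulases, whose genes are induced by cellulose and its breakdown products, and the series asks how phosphatases bear on that regulation. In bulk RNA, fewer hyphae of a type and less RNA per hypha cannot be told apart. The identifiers of the deposited table are systematic ones that the table pairs with no gene names, and 0 of its 10879 rows matched the 9116 genes of the RefSeq table at hand. Cellulases, phosphatases and markers of mycelium are therefore not named, roles are not given for single genes, and no sequence is shown.

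Each deletion strain lacked a transcript that the other strain and the parent had. Levels are in CPM, read counts relative to the library total after TMM scaling, which sets libraries to a common scale. TrE1020W (coding length 1818 bases) was listed with 0 counts in each Δpph5 library and stood at 128, 123, 112 and 123 CPM in Δpp2A replicates 1 to 4. In the parent libraries it was at 123 and 133 CPM, so the Δpp2A and parent ranges overlapped and the Δpph5 libraries lay apart. With 0 counts in Δpph5 no ratio can be estimated. Taking 3 counts over the group as the floor gave a bound of 1126-fold for the Δpp2A level over that of Δpph5. The edgeR quasi-likelihood test gave an adjusted p of 6.52e-11. The lower limit of the 95% counting interval was 915-fold. TrG1101W (846 bases) had 0 counts in Δpp2A replicates 1, 2 and 3 and 4 counts in replicate 4. Its level was 36.6, 40.8 and 39.2 CPM in Δpph5 replicates 1 to 3 and 31.1 and 32.4 CPM in the parent. The pooled Δpph5 level was 338-fold that of Δpp2A, with a 95% counting interval of 132 to 1244 (adjusted p = 7.11e-07 by edgeR). As the labels name no identifier, both remain candidates for the deleted genes. They were picked by their near absence in the libraries of 1 title, so these values describe them and do not check the labels.

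The candidate for the gene deleted in the strain pph5-2 was higher in Δpp2A than in Δpph5, with the parent between them. TrE0027W (1455 bases) was at 31.2, 32.4, 31.0 and 30.4 CPM in Δpp2A, at 10.8, 17.4 and 14.6 CPM in Δpph5 and at 21.0 and 23.1 CPM in the parent. The ranges did not overlap. Δpp2A was 2.21-fold above Δpph5 (edgeR log2 fold change 1.14 with SE 0.16 and adjusted p of 0.00129), and this call was kept under each alternative tried, with log2 fold changes of 0.95 to 1.5. Neither strain passed the test against the parent, with log2 fold changes of 0.50 for Δpp2A (adjusted p = 0.085) and -0.64 for Δpph5 (adjusted p = 0.610), both by edgeR.

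The strains differed widely. Of 8912 genes tested, 3012 (33.8%) had an edgeR adjusted p under 0.05 and are called below, and 4103 had an unadjusted p under 0.05. Of these, 1261 (14.1% of genes tested) were higher in Δpp2A and 1751 (19.6%) were lower. The differences ran from small to very large: 1492 genes (16.7%) were called and at least 2-fold apart, 547 of them higher and 945 lower in Δpp2A. At 4-fold or more there were 235 higher and 464 lower genes, at 16-fold or more 75 and 126, and at 32-fold or more 46 and 60. Conversely 377 higher and 430 lower genes were called with less than 1.5-fold. The median log2 fold change was 0.87 among the higher and -1.10 among the lower genes, against -0.02 over all genes tested, with a median SE of 0.21.

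The split by direction depended on scaling. With scaling by library size only, which leaves out TMM, the median of all genes moved to 0.30 on the log2 scale, and 2626 genes were higher and 937 lower. The share of calls that were higher in Δpp2A was 41.9% with TMM, 51.1% with upper-quartile scaling and 73.7% with library size only. Of the 3012 genes called with TMM, 2197 were called under library size only, and all of these kept their direction. Directions below are relative to the TMM scale.

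**Figure D1:**
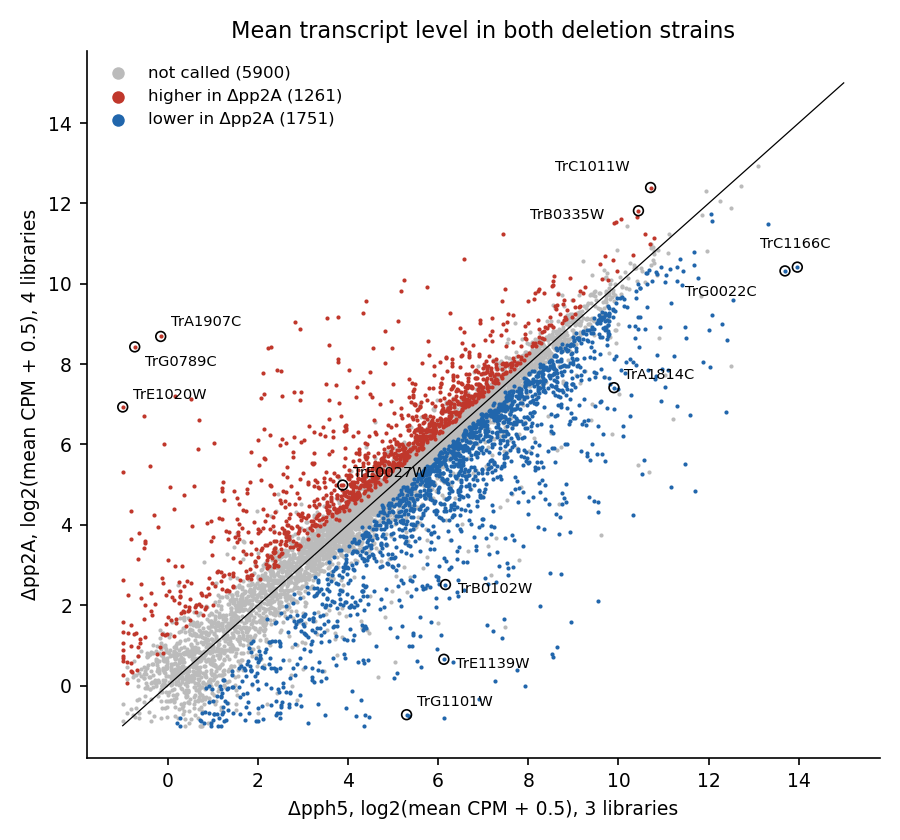
Mean level of each gene tested in Δpp2A (vertical axis, 4 libraries) against Δpph5 (horizontal axis, 3 libraries), both as log2 of mean CPM plus 0.5, with the genes named in the text ringed. Of 8912 points, 1261 were called higher (red) and 1751 lower (blue) in Δpp2A, and the line marks equal levels.

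Both sets of called genes made up a large part of the counts. The higher genes held 19.7% to 21.8% of all counts in the Δpp2A libraries and 6.57% to 11.4% in the Δpph5 libraries. The lower genes held 20.9% to 24.4% in Δpp2A and 34.5% to 48.6% in Δpph5. In the parent libraries the higher genes held 7.52% to 11.7% and the lower genes 34.1% to 46.2%, in each case inside or near the Δpph5 range and outside that of Δpp2A. The genes were chosen on these same counts, so the shares describe the size of the shift and test nothing.

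Separation of single libraries was nearly complete among the higher genes and less so among the lower ones. All 4 Δpp2A libraries lay above all 3 Δpph5 libraries in 1796 genes (20.2% of those tested) and below them in 1644 (18.4%). Among called genes the strains did not overlap in 1209 of the 1261 higher genes (95.9%) and in 1308 of the 1751 lower genes (74.7%). Genes near silence in one strain were mostly on in Δpp2A: 11 genes had at least 10 CPM in each Δpp2A library and at most 1 CPM in each Δpph5 library, and 1 gene showed the reverse. That gene was the candidate TrG1101W. Of the 11, TrE1020W was also on in the parent, and the other 10 reached at most 1.93 CPM in either parent library. The 11 genes spanned 10.2 to 493 CPM in the Δpp2A libraries and all passed the test.

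The 2 genes with the widest gap between the strains on the higher side, among genes whose higher strain averaged 10 CPM or more, were TrG0789C and TrA1907C. TrG0789C (3792 bases) was at 289, 392, 284 and 412 CPM in Δpp2A replicates 1 to 4 and at 0.0972, 0.207 and 0 CPM in Δpph5. The parent libraries were at 1.39 and 0.710 CPM, close to 0 as in Δpph5. The lowest Δpp2A and the highest Δpph5 library were 8.65 apart on log2(CPM + 0.5), and the pooled counts of 14586 against 2 gave a ratio of 4665 with a counting interval of 1291 to 38522 (adjusted p = 4.39e-07 by edgeR). TrA1907C (2280 bases) was at 408, 442, 306 and 493 CPM in Δpp2A and at 0.777, 0.414 and 0 CPM in Δpph5, with 0.756 and 1.93 CPM in the parent. Its gap was 7.90, and its pooled ratio was 1125 with a counting interval of 612 to 2347 (adjusted p = 9.76e-06 by edgeR). Its fitted log2 fold change was 9.86, and 11.15 without Δpph5 replicate 1, which held 8 of the 10 Δpph5 counts. For both genes the Δpp2A strain was the one away from the parent (adjusted p = 8.07e-06 and 1.10e-04 by edgeR), while Δpph5 against the parent gave adjusted p of 0.561 and 0.821.

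On the lower side the widest gaps were those of the candidate TrG1101W (5.34) and of TrE1139W (3.79). TrE1139W (1371 bases) was at 0.393, 0.667, 2.39 and 0.836 CPM in Δpp2A and at 39.6, 107 and 61.2 CPM in Δpph5. Every Δpph5 library lay far above every Δpp2A library, although the Δpph5 libraries themselves spread. The edgeR log2 fold change was -5.97 (SE 0.70) with an adjusted p of 1.38e-04, and it ranged from -6.78, without Δpp2A replicate 3, to -5.52 over the alternatives. The parent libraries were at 98.7 and 18.9 CPM, both above Δpp2A, and Δpp2A differed from them as well (edgeR log2 fold change -5.73 with SE 0.72 and adjusted p of 3.56e-04).

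Among genes with the most reads, ranked by mean CPM of both strains and not per length, TrC1166C and TrG0022C led the lower side. TrC1166C (1629 bases) was at 16896, 15668 and 15599 CPM in Δpph5 replicates 1 to 3, and at 14847 and 14942 CPM in the parent. In Δpp2A replicates 1 to 4 it was at 1029, 191, 3348 and 889 CPM, below all of these. The edgeR log2 fold change was -3.56 (SE 0.65) with an adjusted p of 0.00236, and it was -4.51 without Δpp2A replicate 3. In counts the gene took 1.26% to 1.77% of each Δpph5 library and 0.0219% to 0.378% of each Δpp2A library. TrG0022C (1545 bases) was at 16881, 12047 and 10906 CPM in Δpph5, at 7898 and 14236 CPM in the parent, and at 203, 117, 4494 and 297 CPM in Δpp2A. Replicate 3 stood far above the other Δpp2A libraries, yet below each Δpph5 library. The edgeR log2 fold change was -3.38 (SE 1.02) with an adjusted p of 0.0258. It was -6.01 without Δpp2A replicate 3 (adjusted p = 4.28e-06), while leaving out Δpp2A replicate 1 or 4 ended the call (adjusted p = 0.0552 and 0.0609), as did leaving out Δpph5 replicate 2 or 3 (adjusted p = 0.0576 and 0.0535). It also ended in edgeR fits over only the 7 deletion libraries (adjusted p = 0.0862) or the 9 libraries tagged DD1 (adjusted p = 0.0815). In Δpp2A against the parent, TrC1166C passed the test (edgeR log2 fold change -3.45 with SE 0.68 and adjusted p of 0.00553). TrG0022C did not pass it (edgeR log2 fold change -3.11 with SE 1.07 and adjusted p of 0.0622). Per kilobase of coding length the means were 9856 and 8594 CPM for TrC1166C and TrG0022C in Δpph5, and 837 and 827 in Δpp2A.

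The 2 higher genes with the most reads, TrC1011W and TrB0335W, differed by much smaller factors. TrC1011W (2772 bases) was at 5859, 5658, 4665 and 5366 CPM in Δpp2A. In Δpph5 it was at 3199 CPM in replicate 1 and at 787 and 1054 CPM in replicates 2 and 3, and in the parent at 775 and 2605 CPM. Both the Δpph5 and the parent libraries thus fell at a high and a low level, all below Δpp2A. The edgeR log2 fold change was 1.68 (SE 0.50) with an adjusted p of 0.0236. It was 2.53 without Δpph5 replicate 1, and leaving out Δpph5 replicate 2 or 3 ended the call (adjusted p = 0.0897 and 0.0951), as did leaving out Δpp2A replicate 1 (adjusted p = 0.0507) or fitting only the 9 libraries tagged DD1 (adjusted p = 0.0668). TrB0335W (2622 bases) was at 3654, 3943, 3106 and 3726 CPM in Δpp2A and at a steady 1382, 1424 and 1375 CPM in Δpph5, with 1003 and 2539 CPM in the parent. Its edgeR log2 fold change of 1.37 (SE 0.40) with an adjusted p of 0.0216 lost its call without Δpph5 replicate 2 or 3 (adjusted p = 0.0691 and 0.0713). Neither gene passed the test in Δpp2A against the parent (adjusted p = 0.0638 and 0.124 by edgeR).

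**Figure D2:**
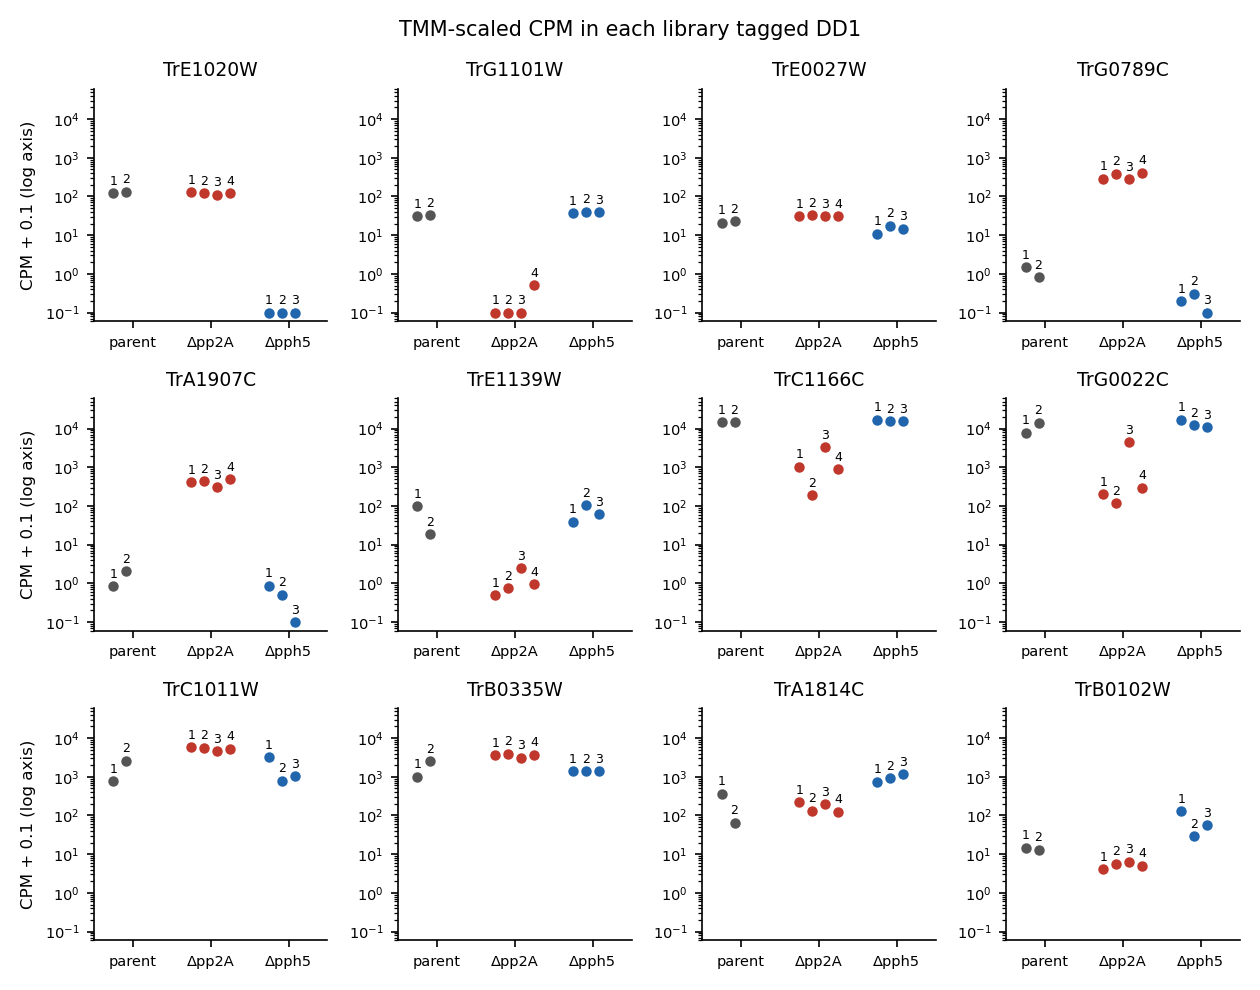
CPM plus 0.1 on a log axis in each library tagged DD1 for the 12 genes named by rule or as candidates, with replicate numbers above the points. TrE1020W, TrG1101W, TrG0789C and TrA1907C are near 0 in 1 of the deletion strains, TrC1166C and TrG0022C show Δpp2A replicate 3 above the other Δpp2A libraries, and TrC1011W shows the Δpph5 and parent libraries at separate levels.

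Which strain had left the parent level was read from the parent libraries. Δpp2A against the parent called 1665 genes (18.7%), and Δpph5 against the parent called 1 (0.0112%), the candidate TrE1020W, with an adjusted p of 0.0615 for the gene next in rank. For Δpph5 573 of the 8912 genes tested had an unadjusted p under 0.05, and DESeq2 called 26. A share of about 0.05 would pass the unadjusted threshold if no gene differed, so the 573 do not count changed genes. Both comparisons use the same parent libraries, and each shares its deletion libraries with the direct comparison, so their values stand side by side and are not independent. Of the 3012 genes called between the strains, 1370 were also called between Δpp2A and the parent. Δpp2A was higher than both in 575 genes and lower than both in 794. The remaining gene, TrG0976W, singled out after its values were seen, lay between them. It had 1.97 to 3.79 CPM in Δpp2A, 5.79 to 13.1 CPM in Δpph5, and 1.13 and 0.910 CPM in the parent, so that both deletion strains were above the parent. Not called against the parent were 1642 of the 3012 genes. Leaving out parent replicate 1 reduced the 1370 genes to 666, and leaving out Δpp2A replicate 1, 2 or 4 to 902, 904 or 907. The 1 gene called for Δpph5 against the parent became 6 without Δpph5 replicate 2 and 4 without parent replicate 2.

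Libraries were also counted without a test. In 1020 of the 1261 higher genes the Δpp2A libraries lay above all 3 Δpph5 and both parent libraries, and in 1013 of the 1751 lower genes they lay below all of these. Over all genes tested, called or not, the shares were 14.7% above and 13.1% below. The Δpph5 libraries lay below all Δpp2A and parent libraries in 141 higher genes (2.2% of all genes tested did so), and above them in 117 lower genes (1.74%). Of these, 74 and 53 genes had the parent between the strains without overlap. Neither strain stood apart in 174 higher and 674 lower genes. For the genes with the parent between the strains, and for those with neither strain apart, no share over all genes tested was counted. These counts therefore do not show whether either pattern was more common among called genes.

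Among the libraries tagged DD1, the 2 lower genes in which the Δpph5 libraries stood farthest above all others were TrA1814C and TrB0102W. TrA1814C, with a coding length of only 255 bases, was at 749, 939 and 1181 CPM in Δpph5, at 225, 134, 195 and 126 CPM in Δpp2A and at 367 and 64.9 CPM in the parent. Every Δpph5 library was at least 2-fold above every other library tagged DD1. Δpp2A was lower than Δpph5 on the log2 scale by -2.49 (edgeR, SE 0.54 and adjusted p of 0.0059), and did not pass the test against the parent (edgeR log2 fold change -0.34 with SE 0.59 and adjusted p of 0.701). Nor did Δpph5 pass the test against the parent (edgeR log2 fold change 2.15 with SE 0.69 and adjusted p of 0.61). TrB0102W (966 bases) was at 129, 28.8 and 55.8 CPM in Δpph5, at 4.01, 5.55, 6.35 and 4.91 CPM in Δpp2A and at 14.6 and 13.0 CPM in the parent. The parent lay between the strains without overlap. In the strain pph5-2, tagged DD3, TrB0102W was at 37.7 to 86.6 CPM, within the Δpph5 range, against 15.3 and 21.6 CPM in the DD3 parent. TrA1814C was there at 296 to 709.7 CPM, below each Δpph5 library, against 457 and 166 CPM in the DD3 parent. For TrB0102W the difference between the strains was -3.78 (SE 0.46, adjusted p = 1.70e-04 by edgeR), made up of -1.40 for Δpp2A (adjusted p = 0.0647) and 2.37 for Δpph5 (adjusted p = 0.481) against the parent, neither of which passed the test alone. Without Δpph5 replicate 1 the difference between the strains was -3.05. Among higher genes the same rule gave the candidate TrE1020W and, through parent levels of only 0.710 and 1.39 CPM, TrG0789C.

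The parent libraries themselves were not alike, and this touched the lower genes more than the higher ones. Among the higher genes parent replicates 1 and 2 lay below all Δpp2A libraries in 96.0% and 86.0%. Among the lower genes parent replicate 1 lay above all Δpp2A libraries in 1676 of 1751 (95.7%), but replicate 2 in 1211 (69.2%). The parents tagged DD3 showed the same difference, with 93.5% for replicate 1 and 73.3% for replicate 2. Where Δpp2A was below all other libraries, the parents were over 2-fold apart in 15.4% of genes. In the other 738 lower genes they were over 2-fold apart in 60.0%, against 21.9% of all genes tested. In those 738 genes the median log2 fold change to Δpph5 was -1.48, larger than the -0.87 of the 1013, and 76 of them were called against the parent, compared with 719 of the 1013. The split into 1013 and 738 genes used the parent values themselves. A part of these differences in parent spread and in calls against the parent is therefore built in, and they test nothing.

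A scale from 0, the mean of the Δpph5 libraries, to 1, the mean of the Δpp2A libraries, placed each library gene by gene for genes called with at least 2-fold. For Δpp2A and Δpph5 libraries the calls and both ends were taken from a fit without the library placed. Among the higher genes the parents tagged DD1 had median positions of -0.00053 and 0.18, and the parents tagged DD3 of 0.070 and 0.11. All 4 parent medians therefore lay at or near the Δpph5 end in this direction. Genes nearer to Δpp2A were 7.31% and 27.4% in the DD1 parents, and 10.4% and 21.4% in the DD3 parents, replicates 1 and 2. Among the 945 lower genes parent replicate 1 was at -0.17 and replicate 2 at 0.63, with 57.4% of genes nearer to Δpp2A in the latter. The DD3 parents repeated this with 0.051 and 0.58.

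The deletion libraries differed among themselves on scales of this kind, each with its own genes and ends. Left out in turn, Δpp2A replicates 1, 2 and 4 were placed at 0.996 to 1.02 for higher and 1.03 to 1.08 for lower genes. Replicate 3 was at 0.92 and 0.76. Δpph5 replicates 2 and 3 were at -0.059 and -0.015 for higher and at -0.12 and -0.14 for lower genes. Δpph5 replicate 1, however, was placed at 0.46 for the 826 higher and at 0.80 for the 1284 lower genes that were called without it. Of those lower genes it lay nearer to the Δpp2A mean in 73.2%.

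**Figure D3:**
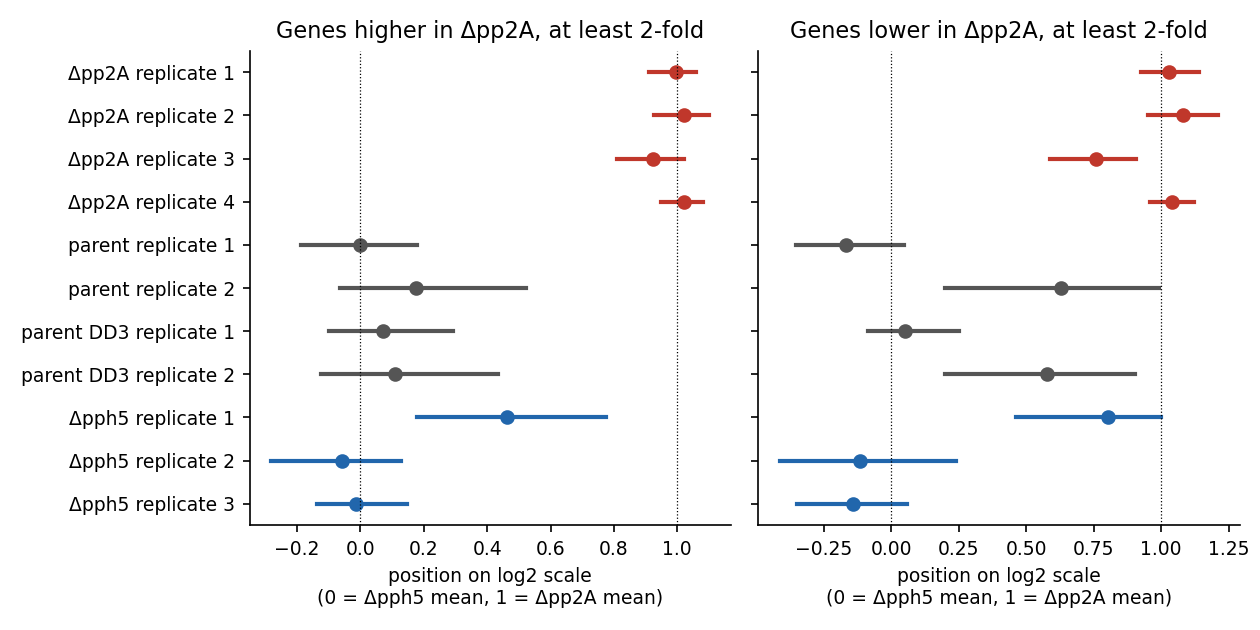
Position of each library between the Δpph5 mean (0) and the Δpp2A mean (1) on the log2 scale, for genes called with at least 2-fold, higher in Δpp2A on the left and lower on the right. Points are medians over genes and bars run from the lower to the upper quartile. Each deletion library was placed with genes and ends from a fit without it, so the libraries do not share a gene set. Among lower genes Δpph5 replicate 1 (0.80) and parent replicate 2 (0.63) lie far from Δpph5 replicates 2 and 3 (-0.12 and -0.14).

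Correlations across genes on log2(CPM + 0.5) describe the same grouping, for 8912 genes that are not independent replicates. The Δpp2A libraries correlated with each other at 0.975 to 0.991. Δpph5 replicates 2 and 3 correlated at 0.981, and replicate 1 with them at only 0.903 and 0.921. Δpph5 replicate 1 was nearer to parent replicate 2 (0.966) than to any Δpph5 library, and replicates 2 and 3 correlated with parent replicate 1 at 0.980 and 0.979. Between the strains, Δpph5 replicate 1 correlated with the Δpp2A libraries at 0.921 to 0.941, and replicates 2 and 3 at 0.832 to 0.889. In numbers of genes, 1130 to 1302 were over 2-fold apart between Δpph5 replicate 1 and a Δpp2A library, and 2222 to 2729 between replicates 2 or 3 and a Δpp2A library.

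Spread within the strains was unequal. The SD of log2(CPM + 0.5) had a median of 0.14 in Δpp2A (n = 4) and of 0.31 in Δpph5 (n = 3). The Δpph5 libraries ranged over more than 4-fold in 709 genes, 366 of them called, and the Δpp2A libraries in 159, of which 88 were called. In the 547 higher genes with at least 2-fold, Δpph5 replicate 1 was the Δpph5 library nearest to Δpp2A in 63.4%, and in the 945 lower ones in 78.1%. In Δpp2A, replicate 3 was nearest to Δpph5 in 47.3% and 64.2%.

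Single libraries set how many genes were called. Without Δpph5 replicate 1 the number rose to 4250 genes, 1861 higher and 2389 lower, of which 2838 were among the 3012. Without Δpph5 replicate 2 or 3 it fell to 1543 and 1545, of which 834 and 873 were at least 2-fold apart. Without Δpp2A replicate 1, 2 or 4 it was 1942, 1975 and 1987, and without replicate 3 it was 2421. A core of 1264 genes (42.0% of the 3012) was called in the same direction with all libraries and in each of the 7 fits without 1 of the deletion libraries. It held 571 higher and 693 lower genes, of which 353 and 408 were at least 2-fold apart.

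**Figure D4:**
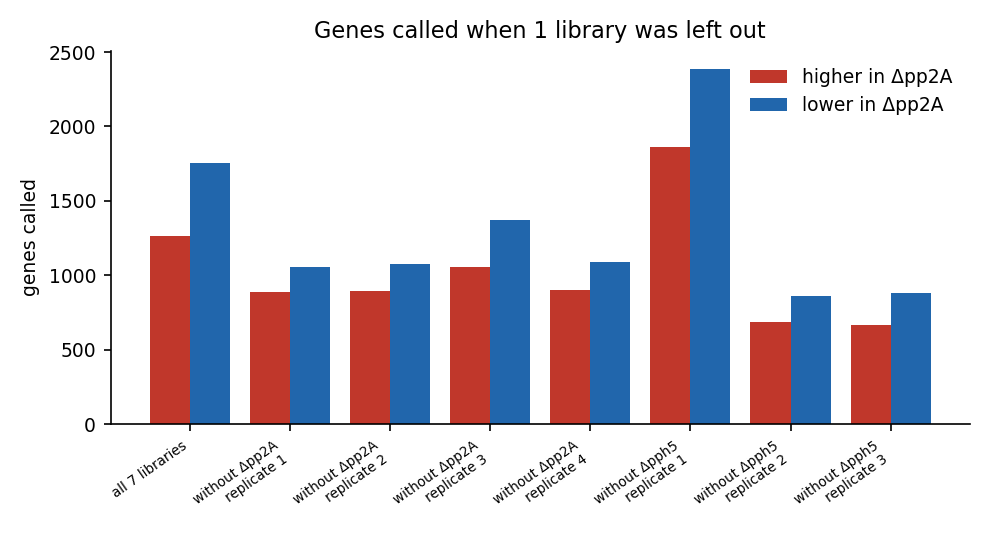
Genes called higher (red) and lower (blue) in Δpp2A than in Δpph5 with all libraries and with 1 deletion library left out at a time. The count was highest without Δpph5 replicate 1 (1861 higher, 2389 lower) and lowest without Δpph5 replicate 2 or 3.

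Direction went with coding length. Lengths in the table were multiples of 3 in 94.7% of genes and are taken as coding lengths. Of 1024 genes of up to 500 bases, 7.62% were higher and 21.0% lower in Δpp2A. The share of higher genes then grew with each length class, up to 30.6% of the 134 genes over 5000 bases, of which 9.70% were lower. Median log2 fold changes went from -0.13 in the shortest to 0.18 in the longest class. Against the parent, the medians in these classes were -0.095 and 0.091 for Δpp2A, and 0.077 and -0.095 for Δpph5. The median log2 difference of parent replicate 1 to replicate 2 was 0.011 in the shortest and -0.081 in the longest class. In genes of up to 1000 bases there were 339 higher and 662 lower calls, and in genes over 2000 bases 414 and 269. With library size only these became 712 and 345 for short and 863 and 127 for long genes, so the majority among short genes turned. The medians of short and long genes were -0.089 and 0.091 with TMM, 0.24 and 0.41 with library size only, and 0.028 and 0.20 with upper-quartile scaling, which thus turned the sign of the short-gene median too.

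The length gradient was not equal in the Δpph5 libraries. With the Δpp2A mean set against each of them, the median log2 difference went from -0.036 in the shortest to 0.038 in the longest class for Δpph5 replicate 1. It went from -0.13 to 0.26 for replicate 2 and from -0.11 to 0.29 for replicate 3. Genes over 2000 bases took 41.7% to 43.0% of the counts in Δpp2A, 39.6%, 34.3% and 35.1% in Δpph5 replicates 1 to 3, and 35.3% and 37.6% in the parent.

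**Figure D5:**
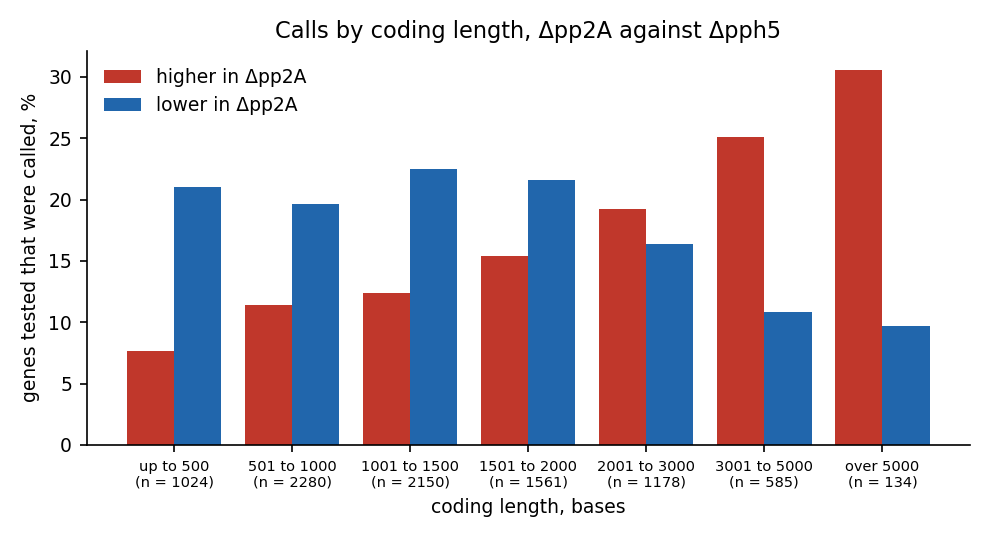
Share of tested genes called higher (red) or lower (blue) in Δpp2A than in Δpph5 by class of coding length, with the number of genes tested in each class. The higher share grows from 7.62% to 30.6%, and the lower share is 21.0% in the shortest and 9.70% in the longest class.

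Level mattered as well. Genes were divided into 5 classes of equal size by CPM per kilobase of coding length, with both strains weighted equally. In the highest class, from 89.8 CPM per kilobase, 661 of 1783 genes (37.1%) were lower and 208 (11.7%) higher in Δpp2A, with a median log2 fold change of -0.24. Set against single Δpph5 libraries, the Δpp2A mean in this class had median log2 differences of -0.065 for replicate 1, -0.31 for replicate 2 and -0.25 for replicate 3. In the next to lowest class, between 7.73 and 21.5 CPM per kilobase, 16.7% were higher and 12.1% lower, with a median of 0.12. Within each class the median was higher in genes over 2000 bases than in those of up to 1000 bases, for example -0.098 against -0.32 in the highest class. Against the parent, the highest class had medians of -0.23 in Δpp2A and 0.021 in Δpph5.

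Calls of like direction lay beside each other in the running numbers of the identifiers, whose meaning the sources used here do not give. Where the next number under the same letter was tested too, it was also higher for 276 of 1070 higher genes (25.8%), compared with 14.0% over all genes. It was also lower for 404 of 1467 lower genes (27.5%), compared with 19.4%. Runs of 3 or more consecutive numbers called in 1 direction included 146 higher genes in 45 runs and 270 lower genes in 83 runs, and the longest run in each direction held 6 genes. By the letter of the identifier, A to G, the higher share ran from 11.6% (F) to 16.5% (C) and the lower share from 17.8% (A) to 21.2% (F), all near the shares over all genes.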

How the data were processed

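RNA was sequenced from mycelium with stranded libraries after ribosomal RNA depletion, per the labels' protocols. The authors deposited unnormalised read counts per gene and library. The submitters' processing notes list HISAT2 2.2.1 with no role. The sources used here state neither counting settings and use of strand nor genome build and annotation, so reads of overlapping, antisense or near-identical genes may sit with either gene. The deposited counts summed to 7862390 to 11134647 in Δpp2A, 6026511 to 9842288 in Δpph5 and 9310996 and 9906943 in the parent tagged DD1.

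Each count column was joined to its sample by the label that names it. Genes kept by filterByExpr over the 5 groups (8912 of 10879) were scaled by TMM and fitted over all 15 libraries with a robust quasi-likelihood model in edgeR 4.0.16 (R 4.3.3), with 1 mean per group. Benjamini-Hochberg adjustment ran over every gene tested, and adjusted p under 0.05 counts as called. The edgeR test itself returns no SE. Each SE given is the size of the log2 fold change divided by the square root of the F statistic of the test, which is an approximation. The main fit was also run on simulated counts, drawn independently for each library from 1 mean per gene, apart from genes changed on purpose. Likeness between single libraries, as between Δpph5 replicate 1 and parent replicate 2, was not simulated. The simulation therefore does not show how reliable the calls are in its presence. Alternatives used other scalings, filters and library sets, DESeq2 1.42.0 and limma 3.58.1. Reads carry no molecular identifiers and are not independent molecules, so counting intervals and the floor describe counting error only.

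Lists, rules and tests were chosen with earlier results of these data known. Named were, per direction, the 2 called genes with a mean of at least 10 CPM and the widest gap between libraries, the 2 in which Δpph5 stood apart most, the 2 with the highest mean CPM without overlap, and candidates for deleted genes (under 1% of the parent, and 5 CPM or more in all libraries outside that group).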

Additional observations from a re-analysis of the deposited data

Results flagged for a closer look

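In Δpp2A, TrG0022C at 4494 CPM in replicate 3 lay far from the other 3 libraries, and so did the candidate TrG1101W at 0.418 CPM in replicate 4, from 4 counts with 0 elsewhere. Of 12 genes examined in the 4 Δpp2A libraries these 2 held such a distant library, where about 0.6 are given by chance. Where all other libraries are at 0, any count stands out. Groups of 2 or 3 libraries were not examined.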

How the results depend on the processing

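Called genes numbered 3012, and 2006 with only the 9 libraries tagged DD1 (1109 lower), 5360 with limma voom and library quality weights (2502 higher, 2858 lower), and 1543 to 4250 with 1 library left out (663 to 1861 higher, 857 to 2389 lower). Library size only gave 2626 higher and 937 lower. At least 2-fold, 1492 became 834 to 2110 with 1 library left out. With the replicate number as a replicate block 2346 genes were called over 15 libraries and 559 over the 7 libraries (332 higher, 227 lower, 474 at least 2-fold). Over the 7 libraries it ended the calls of TrB0102W (adjusted p = 0.0549), TrC1011W (0.0821), TrC1166C (0.0888) and TrG0022C (0.128), and genes of up to 1000 bases had 98 higher and 71 lower calls. The labels do not say whether same-numbered Δpp2A and Δpph5 libraries share more than a number. Their deviations from the group means correlated at 0.249, -0.140 and 0.234. Δpph5 replicates 1 and 3 correlated best with the Δpp2A library of the same number, and Δpph5 replicate 2 with Δpp2A replicate 3 (0.245). Of the direct calls, 1370 were also called between Δpp2A and the parent, 862 with only the DD1 libraries, 2077 with the parents of both tags as 1 group, 581 with limma voom, and 666 to 1966 with 1 library left out. The 1 gene also called between Δpph5 and the parent became 4 with both parents as 1 group, 17 with DESeq2, and 1 to 5 with 1 library left out. The cause of these changes was not tested, except that fewer libraries enter some fits. RLE size factors, both filters, the fit that was not robust and DESeq2 kept the number of genes called between the strains within 1.5 times. Log2 fold changes of the 12 named genes kept their direction in all 251 refits, of which 235 kept the side of the threshold and 16 lost the call. The strains did not overlap in any of these genes, mostly through the rules that named them. A change of direction could therefore hardly occur. DESeq2 gave no adjusted p for TrG0022C. Limma voom moved TrC1011W to 2.41, TrC1166C to -4.47 and TrG0022C to -5.21. Both deletion groups are small, so genes that were not called are not shown to be equal, and at the depth of 6026511 counts in the shallowest Δpph5 library low transcripts rest on few reads.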
